A study of Mus musculus with 2 samples.

Results

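The cells described here were those labelled as NK cells or innate lymphoid cells (ILCs) that passed a dendritic cell (DC) sort of mouse spleen. They were the cells of cluster 13 in the deposited clustering whose SingleR label was either NK cells or ILC, SingleR being a tool that labels each cell by its likeness to reference profiles. The rule found 168 of 24343 cells, or 0.690%, of which 82 carried the NK label and 86 the ILC label. Within cluster 13, which held 387 cells, 123 others had a T cell, NKT or γδ T cell label and 79 a DC label. The 123 are called T-labelled below, so that group is not of conventional T cells alone.

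NK cells are innate lymphocytes that kill infected or transformed cells by releasing perforin and granzymes, and that read their targets through activating and inhibitory receptors, many of them encoded in a single gene cluster. ILCs lack rearranged antigen receptors and act mainly through cytokines, with group 1 close to NK cells, group 2 making type 2 cytokines and group 3 resembling lymphoid tissue inducer cells. Both kinds depend on the transcription factor Id2, and mouse NK cells can carry surface CD11c, one of the markers of the sort.

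Spleens came from female C57BL/6 mice aged 8 weeks, either wildtype (WT) or lacking Batf3, a transcription factor needed by type 1 conventional DCs (Batf3-/-). Splenocytes of 6 mice per genotype were pooled, depleted of T and B cells and sorted as live MHCII+CD11c+ cells, and each pool gave 1 library for transcripts and for antibody-derived tags. WT mice were bought and Batf3-/- mice were bred in house, so supplier, pool, library and genotype cannot be told apart. With 1 library per genotype no difference was tested, and all intervals below are 95% counting intervals that cover counting error alone.

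The WT library held 12224 cells and the Batf3-/- library 12119. NK- and ILC-labelled cells were 96 of the WT cells, 0.785% (exact binomial interval 0.637 to 0.958), and 72 of the Batf3-/- cells, 0.594% (0.465 to 0.748). These shares were set by the depletion and the MHCII and CD11c gates, and they are not shares of the spleen. Median depth was 3424 unique molecular identifiers (UMIs, single captured transcripts) per NK-labelled cell, 6602.5 per ILC-labelled cell, 3984 per T-labelled cell and 8504 per cell of the DC clusters. The libraries shared 56 barcode sequences, none of them in an NK- or ILC-labelled cell. Scrublet at an expected rate of 10% called 0 of the 168 cells a doublet, against 34 of the 45 WT and 4 of the 34 Batf3-/- cells of cluster 13 with a DC label.

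Levels are given as CPM, the UMIs of a gene summed over the cells of a group and scaled to 1000000 UMIs of that group. Log2 ratios are of such levels, with the counting interval in parentheses. A gene counted as past 2-fold when its ratio was over 2-fold either way and it had at least 20 UMIs in the groups compared. Since clusters and labels were themselves derived from these transcripts, contrasts between groups of cells describe the labels and are not tests of them.

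NK receptor genes were detected under both labels. Klrb1a, a receptor of the Nkrp1 family, was at 141 CPM in WT and 177 CPM in Batf3-/- NK-labelled cells. In ILC-labelled cells it was at 120.0 and 46.0 CPM in the same order. It stood at 17.3 and 22.4 CPM in T-labelled cells and at 0.0418 and 0.124 CPM in the DC clusters, below every NK and ILC value, although the intervals of Batf3-/- ILC-labelled and T-labelled cells overlapped. Klrb1a UMIs were found in 33 of 82 NK-labelled and 26 of 86 ILC-labelled cells, against 3 of 123 T-labelled and 18 of 23694 DC cluster cells. After thinning each cell to 1000 UMIs, the shares were 15.9%, 10.5%, 1.63% and 0.017%.

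The finer SingleR labels crossed the line between the groups. Of the 86 ILC-labelled cells, 51 had a finer label of an NK subset, 18 of an ILC subset, 14 of T or γδ T cells and 3 of DCs. Of the 82 NK-labelled cells, 74 had a finer NK label. The ILC-labelled group is therefore called by its label and not by an ILC subset.

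**Figure D1:**
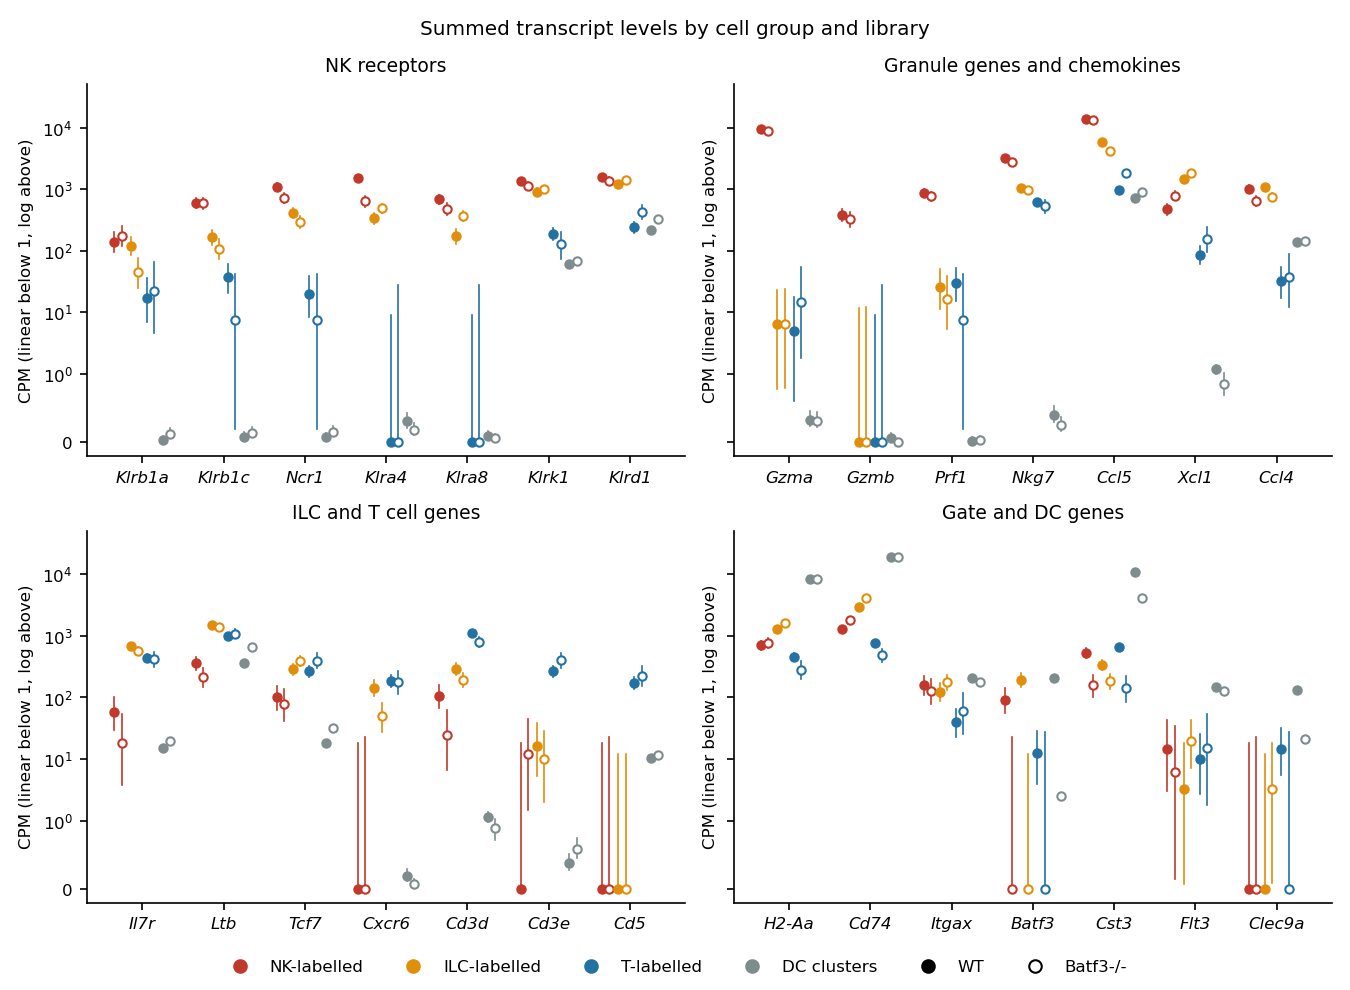
Summed transcript levels in CPM (linear below 1, logarithmic above) for 28 genes in 4 cell groups, with WT filled and Batf3-/- open. Bars are 95% Poisson counting intervals. NK receptor genes sit above T-labelled and DC levels in both libraries, and Gzma is far higher in NK-labelled than in ILC-labelled cells.

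NK receptor genes were mostly higher in the pooled NK- and ILC-labelled cells than in T-labelled and DC cells. Of 23 receptor genes with enough UMIs, 21 were past 2-fold higher than in T-labelled cells and 0 lower, with a median log2 ratio of 3.06. Across all 6993 genes compared with T-labelled cells 14.9% were past 2-fold and 11.5% were past 2-fold higher, with a median of 0.19. Against the DC clusters 22 of 24 receptor genes were past 2-fold higher, with a median of 6.18, where 27.5% of 14435 genes were past 2-fold and 17.4% were higher. Ncr1, the activating receptor NKp46, was at 1085 CPM in WT and 726 CPM in Batf3-/- NK-labelled cells and at 412 and 296 CPM in ILC-labelled cells. It was at 19.8 and 7.46 CPM in T-labelled cells, a log2 ratio of 5.09 (4.16 to 6.23) over both labels. Klra4 and Klra8, of the Ly49 family of receptors for MHC class I, had 0 UMIs in 123 T-labelled cells. Over the NK- and ILC-labelled cells together Klra4 had 665 UMIs and Klra8 had 386, for Klra8 at least 70.6-fold higher. Counts of the Klra and Klrb1 genes are uncertain, because near-identical paralogs can share or lose reads.

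Receptor adaptors and shared signalling genes moved less uniformly. Of 10 adaptor genes, 4 were past 2-fold higher and 2 lower than in T-labelled cells, where 11.5% of all genes were higher and 3.43% lower. Tyrobp, the DAP12 adaptor of activating receptors, was at 3139 and 2677 CPM in NK-labelled cells, 2225 and 2180.2 CPM in ILC-labelled cells and 195 and 343 CPM in T-labelled cells. Fcer1g, which couples Fc receptors, was at 2127 and 1207 CPM in NK-labelled cells and 84.0 and 89.6 CPM in T-labelled cells. The DC clusters expressed both genes too, Tyrobp at 1155 and 1391 CPM and Fcer1g at 677 and 935 CPM.

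The granule genes divided the NK label from the ILC label. Gzma, the serine protease granzyme A, was at 9472 CPM in WT and 8732 CPM in Batf3-/- NK-labelled cells. It was at 6.49 and 6.58 CPM in ILC-labelled cells and 4.94 and 14.9 CPM in T-labelled cells. The log2 ratio of NK- over ILC-labelled cells was 10.45 (9.09 to 12.33). Gzma UMIs were in 73 of 82 NK-labelled cells and 4 of 86 ILC-labelled cells, although the ILC-labelled cells were the deeper. After thinning to 1000 UMIs these were 72 and 1 cells, and 0 of 123 T-labelled cells.

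Gzma lies on chromosome 13 (113093825 to 113100981, minus strand, GENCODE annotation of GRCm38) and Ncr1 on chromosome 7 (4337724 to 4345164, plus strand). Both genes show the split of receptor and granule expression, so the 250 bases before their annotated starts are printed 5′ to 3′ from RefSeq promoter sequence of GRCm38.p6. They cover chr13:113100982-113101231 on the minus strand and chr7:4337474-4337723 on the plus strand, and neither overlaps an exon in that annotation. Capitals mark matches to the RUNX motif, TGTGGT or its reverse complement ACCACA, which 14.0% of 32851 such windows hold on either strand. A match is a description of the letters and not evidence of a site.
Gzma: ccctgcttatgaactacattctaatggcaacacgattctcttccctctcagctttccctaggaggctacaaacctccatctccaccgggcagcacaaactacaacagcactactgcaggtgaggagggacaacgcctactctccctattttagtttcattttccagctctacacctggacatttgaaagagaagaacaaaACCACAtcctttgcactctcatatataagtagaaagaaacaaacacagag
Ncr1: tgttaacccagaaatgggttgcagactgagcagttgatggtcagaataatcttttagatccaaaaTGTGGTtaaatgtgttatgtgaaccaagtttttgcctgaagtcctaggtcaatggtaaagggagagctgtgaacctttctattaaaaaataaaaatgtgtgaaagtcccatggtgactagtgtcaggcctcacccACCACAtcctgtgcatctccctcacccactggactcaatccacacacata
Gzma had 1 match, 50 bases before the start, and Ncr1 had 2. Those of Ncr1 lay 185 and 50 bases before the start used here, and 176 and 41 bases before its other annotated start. Neither window held the T-box core GGTGTG, found in 16.3% of windows, or the TCF motif CTTTGA, found in 13.8%, on either strand. The windows of Prf1, Klrb1c, Il7r and Xcl1, which overlap exons, were scanned too. Prf1, Klrb1c and Xcl1 each held 1 RUNX match and Il7r held 0, and Xcl1 also held 2 T-box matches. Runx3, which encodes a factor that reads the RUNX motif, was at 248 and 232 CPM in NK-labelled cells and 240.0 and 220.3 CPM in ILC-labelled cells.

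Of 11 granule genes, 8 were past 2-fold higher and 1 lower in NK- than in ILC-labelled cells, with a median log2 ratio of 1.92. Of these 9 genes, 8 had the same sign in both libraries. Across all 5736 genes 12.6% were past 2-fold, 5.81% higher and 6.75% lower, with a median of 0.02. Gzmb, granzyme B, was at 385 and 323 CPM in NK-labelled cells and had 0 UMIs in 86 ILC-labelled cells, at least 72.9-fold lower. Prf1, the pore-forming perforin, was at 861 and 762 CPM in NK-labelled cells and 25.9 and 16.4 CPM in ILC-labelled cells, a log2 ratio of 5.27 (4.47 to 6.19). Srgn, the granule proteoglycan serglycin, was not past 2-fold and lay the other way in both libraries, at −0.64 in WT and −0.59 in Batf3-/-. Nkg7, a granule membrane protein, was at 3203 and 2738 CPM and 1035 and 964 CPM in those groups. Tnfsf10, the death ligand TRAIL, was the 1 gene past 2-fold lower, at 0 and 12.2 CPM in NK-labelled and 35.7 and 88.8 CPM in ILC-labelled cells.

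**Figure D2:**
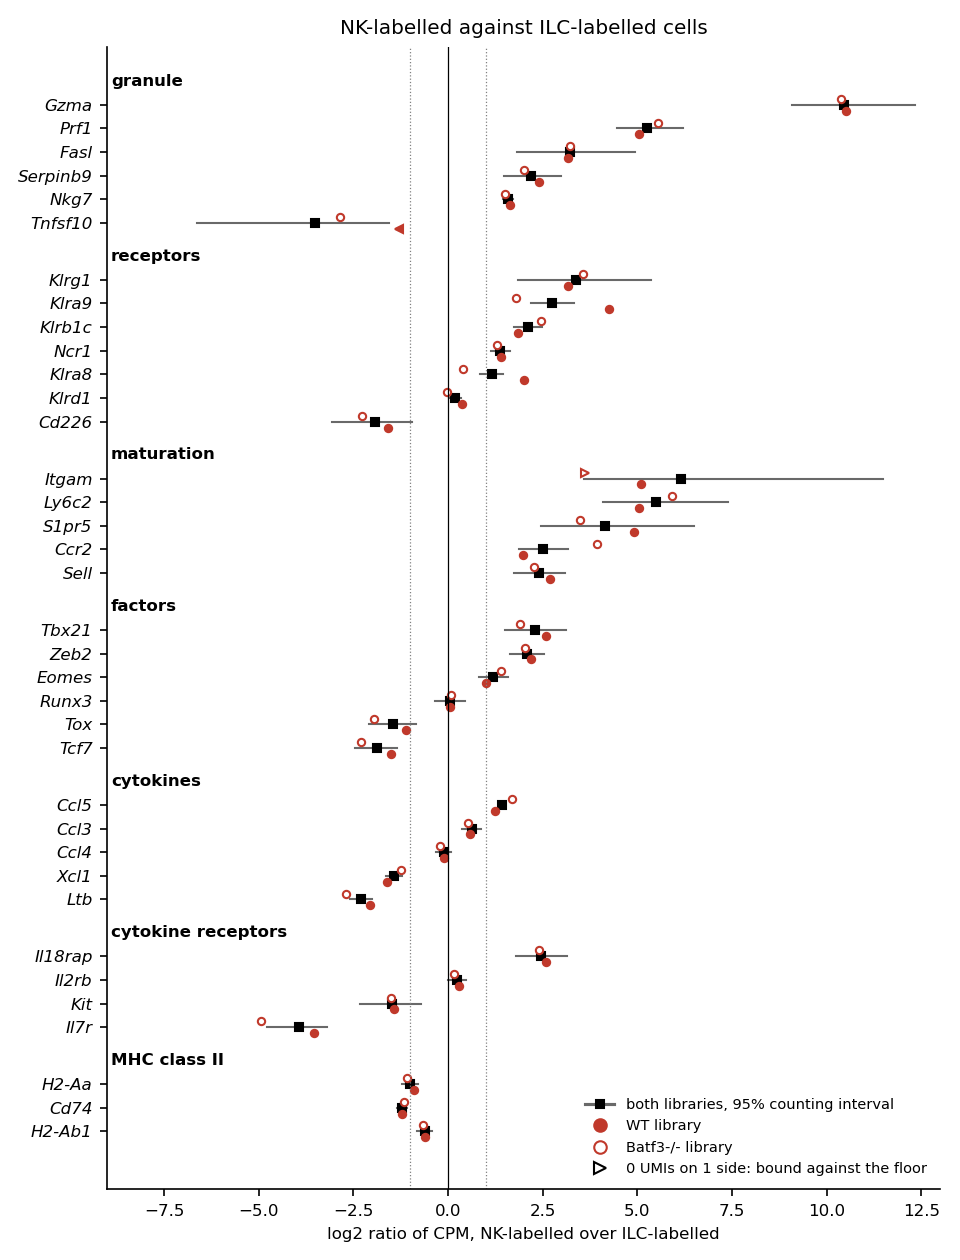
Log2 ratio of CPM, NK-labelled over ILC-labelled cells, by role, with squares for both libraries, bars for the 95% counting interval and circles for each library (triangles where 1 side had 0 UMIs). Dotted lines mark 2-fold. Gzma, Prf1 and the 5 genes drawn under maturation, 1 of them the chemokine receptor gene Ccr2, lie to the right in both libraries. Il7r, Ltb, Tcf7 and the MHC class II genes lie to the left in both. The drawn genes were picked, and of 11 genes of the maturation list 7 were past 2-fold higher and 3 lower.

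Receptor and maturation genes were higher in NK-labelled cells more often than lower. Of 23 NK receptor genes, 10 were past 2-fold higher and 1 lower in NK-labelled cells, where 5.81% of all genes were higher and 6.75% lower. Klrb1c, which encodes NK1.1, was at 604 and 592 CPM in NK-labelled cells and 169 and 109 CPM in ILC-labelled cells. Klrd1, the CD94 chain, hardly separated them, with a log2 ratio of 0.18 (0.02 to 0.34). Of 11 maturation genes 7 were past 2-fold higher and 3 lower, the lowest being Il7r at -3.94. Itgam, which encodes CD11b of mature NK cells, was at 112 and 122 CPM in NK-labelled cells and 3.24 and 0 CPM in ILC-labelled cells. S1pr5, a receptor for egress of mature NK cells, was at 97.3 and 73.2 CPM and 3.24 and 6.58 CPM.

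Of 13 transcription factor genes 4 were past 2-fold higher and 3 lower in NK-labelled cells, where 5.81% of all genes were higher and 6.75% lower, and their median was 0.07. Eomes was at 341 and 415 CPM in NK-labelled cells and 169 and 158 CPM in ILC-labelled cells, a log2 ratio of 1.19 (0.81 to 1.58). Tbx21, the T-bet gene, had a ratio of 2.29 (1.52 to 3.12). Tcf7, which encodes the early lymphoid factor TCF1, went the other way at -1.88 (-2.45 to -1.35). Id2 was at 939 and 781 CPM and 759 and 582 CPM, so both labels expressed the factor on which these lineages depend.

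Some cytokine and cytokine receptor genes were higher in ILC-labelled cells. Il7r, the interleukin-7 receptor chain of ILCs and T cells, was at 681 CPM in WT and 562 CPM in Batf3-/- ILC-labelled cells. NK-labelled cells had 58.4 and 18.3 CPM and T-labelled cells 435 and 418 CPM. The log2 ratio of NK- over ILC-labelled cells was -3.94 (-4.79 to -3.20). Il7r UMIs were found in 75 of 86 ILC-labelled and 7 of 82 NK-labelled cells, and after thinning in 45.3% and 2.44%, against 1.97% of DC cluster cells. Ltb, lymphotoxin β, was at 1515 and 1375 CPM in ILC-labelled and 360.2 and 213 CPM in NK-labelled cells. Cxcr6, a homing receptor of tissue-resident lymphocytes, was at 143 and 49.3 CPM in ILC-labelled cells, with 0 UMIs in 82 NK-labelled cells.

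No ILC subset list was detected in full. Of the 4 group 1 genes with enough UMIs, 3 were past 2-fold lower in NK- than in ILC-labelled cells, with a median of −3.54, and all 3 group 3 genes were, with a median of −2.29. Across all genes 6.75% were lower. Of 4 group 2 genes 2 were past 2-fold lower, but 0 of these 2 had the same sign in both libraries, Rora being at −3.66 in WT and 1.89 in Batf3-/- and Il2ra, with 0 UMIs in NK-labelled cells, having no direction in Batf3-/-. The group 2 genes Il1rl1, Il17rb, Il13 and Calca had 0 UMIs in all 168 cells, which at 3 counts of 168 allows a share of cells with a UMI of up to 1.79%.

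Receptors for other cytokines were split between the labels. Of 13 cytokine receptor genes 4 were past 2-fold higher and 3 lower in NK-labelled cells, where 5.81% of all genes were higher and 6.75% lower. Il2rb, a chain of the interleukin-2 and interleukin-15 receptors, was at 764 and 585 CPM in NK-labelled cells, 629 and 523 CPM in ILC-labelled cells and 203 and 134 CPM in T-labelled cells. Il18rap, a chain of the interleukin-18 receptor, was at 195 and 281 CPM in NK-labelled and 32.4 and 52.6 CPM in ILC-labelled cells. Kit, the stem cell factor receptor of immature lymphoid cells, was at 38.9 and 54.9 CPM and 104 and 155 CPM in those groups, a log2 ratio of -1.49 (-2.34 to -0.72). Of 7 chemokine and egress receptor genes 2 were past 2-fold higher and 2 lower, beside the same shares of all genes, with Ccr2 among the higher at 2.51 (1.89 to 3.17).

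Genes ranked by their ratio alone added the following. Capg, an actin capping protein gene, had 74 UMIs in ILC-labelled and 2 in NK-labelled cells, and Sdc4, a syndecan gene, had 68 and 2. Prss2, a trypsinogen gene, had 224 UMIs in NK- and ILC-labelled cells and 1 in T-labelled cells. Its level was 68.1 and 299 CPM in NK-labelled cells, from 3 cells, and 159 and 368 CPM in ILC-labelled cells. Igfbp4, Cd8b1 and Izumo1r were among the genes furthest below T-labelled cells, with 2, 5 and 3 UMIs in all 168 cells. Against the DC clusters Cma1, a mast cell protease gene, had 66 UMIs against 1, and the cDC1 gene Clec9a had 1 UMI in 168 cells.

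Chemokine transcripts were found in both labels, for Xcl1 in a minority of NK-labelled cells. Ccl5 was at 13759.6 and 13263 CPM in NK-labelled cells and 5845 and 4130.3 CPM in ILC-labelled cells, above 968 and 1806 CPM in T-labelled cells. Over both libraries 2 DC clusters had Ccl5 at about the ILC-labelled level, cluster 1 at 5565 CPM and cluster 12 at 5026 CPM. The next of the DC clusters, cluster 8, had 1226 CPM. Xcl1, the ligand of the cDC1 receptor XCR1, was at 1447 and 1861 CPM in ILC-labelled cells and 472 and 787 CPM in NK-labelled cells, a log2 ratio of -1.43 (-1.65 to -1.22). The median NK-labelled cell had 0 Xcl1 UMIs in both libraries, with upper quartiles of 3.74 and 3.75 per 10000 UMIs and a highest WT cell at 202. It was at 86.4 and 157 CPM in T-labelled cells and 1.20 and 0.852 CPM in the DC clusters. Of 8 effector genes, 5 were past 2-fold higher and 0 lower than in T-labelled cells, where 11.5% of all genes were higher. Ifng, interferon-γ, was at 195 and 152 CPM in NK-labelled and 139 and 42.7 CPM in ILC-labelled cells.

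T cell genes were lower than in T-labelled cells but not absent from the ILC label. All 9 T cell marker genes in the tables were past 2-fold lower in NK- and ILC-labelled cells, with a median of −3.26, where 3.43% of all genes were lower. Cd5 and Cd6 had 0 UMIs in 168 cells. A UMI of Cd3d, Cd3e or Cd3g was found in 8 of 82 NK-labelled cells, 32 of 86 ILC-labelled cells, 122 of 123 T-labelled cells and 321 of 23694 DC cluster cells, or 1.35%. Cd3d alone was found in 14.0% of ILC-labelled, 1.22% of NK-labelled and 0.127% of DC cluster cells after thinning. In ILC-labelled cells Cd3e had 8 UMIs and Cd3d 149. Between the labels the list went both ways. Of 4 of its genes with enough UMIs, 2 were past 2-fold higher and 1, Cd3d, lower in NK-labelled cells. Across all genes 5.81% were higher and 6.75% lower. The constant region genes of the T cell receptor were not analysed here.

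Markers of other cells were mostly below the level of the DC clusters, but not all of them. Over 5 monocyte and macrophage markers the summed level was 9.73 and 12.2 CPM in NK-labelled cells and 0 and 16.4 CPM in ILC-labelled cells, against 544 and 703.9 CPM in the DC clusters. Over 6 B cell markers it was 4.87 and 24.4 CPM in NK-labelled and 35.7 and 39.5 CPM in ILC-labelled cells, against 19.8 and 7.46 CPM in T-labelled cells and 48.1 and 71.9 CPM in the DC clusters. Over 6 cDC1 markers it was 535 and 402 CPM in NK-labelled and 139 and 171 CPM in ILC-labelled cells, against 2151 and 456 CPM in the DC clusters. Irf8, a factor of cDC1 cells that NK cells also use, made up most of that sum, at 453 and 396 CPM in NK-labelled and 84.3 and 125 CPM in ILC-labelled cells. The cDC2 list summed to 38.9 and 30.5 CPM in NK-labelled and 9.73 and 29.6 CPM in ILC-labelled cells, against 356 and 459 CPM in the DC clusters. The neutrophil, erythroid and plasma cell list summed to 29.2 and 18.3 CPM and to 6.49 and 16.4 CPM, against 163 and 17.1 CPM. The pDC list summed to 180.1 and 116 CPM in NK-labelled and 470.3 and 260 CPM in ILC-labelled cells, against 229.7 and 202 CPM in T-labelled cells and 423 and 481 CPM in the DC clusters. The pDCs themselves, cluster 14, are part of the DC clusters. In WT the ILC-labelled sum was above that of the DC clusters, but 156 of its CPM were of Ly6d, with 47 of the 48 UMIs in 1 cell. The part of other cells in these values was not tested.

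These cells had been sorted as MHCII+CD11c+, and their summed MHC class II transcripts lay between those of T-labelled cells and of the DC clusters. H2-Aa, an MHC class II α chain, was at 701 and 774 CPM in NK-labelled cells and 1307 and 1631 CPM in ILC-labelled cells. It was at 462 and 284 CPM in T-labelled cells and 8395 and 8465 CPM in the DC clusters. Cd74, the invariant chain, was at 1280.1 and 1842 CPM in NK-labelled, 2971 and 4117 CPM in ILC-labelled and 761 and 485 CPM in T-labelled cells. Single NK-labelled cells differed widely in Cd74. The median Batf3-/- NK-labelled cell had 3.14 Cd74 UMIs per 10000 UMIs and the highest 157, against a median of 4.16 in T-labelled cells. In WT the medians were 3.23 and 2.41. ILC-labelled cells had medians of 17.6 in WT and 28.6 in Batf3-/-. Against the DC clusters 10 of 12 DC and MHC class II genes were past 2-fold lower and 0 higher, with a median of −2.80, where 10.0% of all genes were lower. Of 10 DC and MHC class II genes, 7 were past 2-fold higher and 0 lower than in T-labelled cells, with a median of 1.56, where 11.5% of all genes were higher. Itgax, which encodes CD11c, was at 161 and 128 CPM in NK-labelled and 123 and 178 CPM in ILC-labelled cells, 205 and 177 CPM in the DC clusters and 39.5 and 59.7 CPM in T-labelled cells. The median NK-labelled cell had 0 Itgax UMIs in both libraries.

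Transcripts of H2-Aa were also counted against those of Cst3, a cystatin gene abundant in DCs. T-labelled cells had 0.711 H2-Aa UMIs per Cst3 UMI (0.586 to 0.861) in WT and 2.00 (1.12 to 3.67) in Batf3-/-. The pooled DC clusters had 0.776 and 2.08, within the intervals of the T-labelled cells in each library. ILC-labelled cells had 3.88 (3.12 to 4.85) and 8.86 (6.71 to 11.9), and NK-labelled cells 1.33 (1.03 to 1.73) and 4.88 (3.18 to 7.76). Both labels lay above the ratio of the pooled DC clusters in both libraries, with intervals that did not reach it. That ratio pools clusters unlike in Cst3, so it does not hold for each of them. Over both libraries H2-Aa and Cst3 were at 8216 and 1718 CPM in cluster 0 and at 8933 and 23976 CPM in cluster 4. The ratio of cluster 0 was thus above that of NK-labelled cells, at 2.02 over both libraries. ILC-labelled cells had 5.62 (4.74 to 6.69) over both libraries, and the ratio of cluster 0 lay within that interval. In cluster 3 H2-Aa was at 10724.5 CPM and Cst3 at 1635.3 CPM, a ratio above 5.62 but also within that interval. The ratios by label are of sums, to which single cells gave unequally. NK-labelled cells had a median of 3.47 H2-Aa UMIs per 10000 UMIs over both libraries and a highest cell at 52.3. For Cst3 the median WT T-labelled cell had 2.64 UMIs per 10000 and the highest 175. How far that cell sets the WT T-labelled ratio was not tested. Empty droplets were not analysed here, and the part of free RNA in the MHC class II transcripts was not tested. For Cd74 per Cst3 UMI the T-labelled value was 1.17 (0.990 to 1.39) in WT, below the DC value of 1.77, and ILC- and NK-labelled cells had 8.81 (7.18 to 10.9) and 2.44 (1.94 to 3.08). In Batf3-/- the T-labelled value was 3.42 (2.03 to 6.04), an interval that holds the DC value of 4.61, and ILC- and NK-labelled cells had 22.4 (17.1 to 29.8) and 11.6 (7.77 to 18.1). H2-Aa UMIs were found in 58.1% of ILC-labelled, 39.0% of NK-labelled and 18.7% of T-labelled cells after thinning, and in 90.7%, 70.7% and 61.0% before it.

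**Figure D3:**
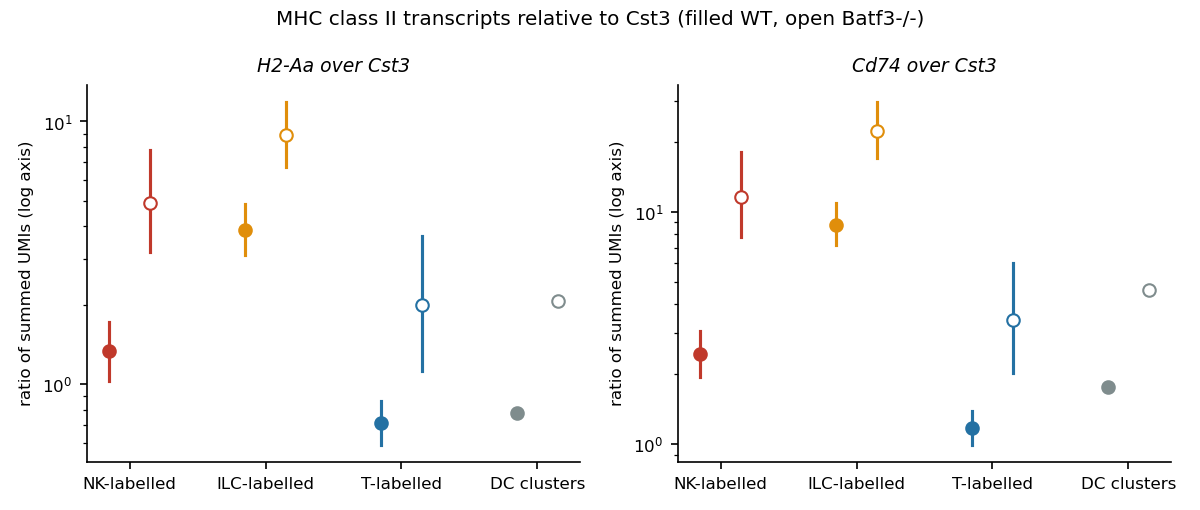
Ratio of summed UMIs of H2-Aa and Cd74 to Cst3 (logarithmic axes) by cell group, with WT filled, Batf3-/- open and bars for 95% counting intervals. For H2-Aa the T-labelled cells lie at the pooled DC ratio of their library. For both genes the sums of ILC- and NK-labelled cells lie above the pooled DC ratio, though not above that of each DC cluster for H2-Aa. Those of NK-labelled cells had unequal parts from single cells.

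Proliferation genes were higher in the NK label, where Mki67 rested on few cells. Of 10 such genes 7 were past 2-fold higher and 0 lower in NK-labelled cells, with a median of 1.87, where 5.81% of all genes were higher and 6.75% lower. Mki67, a marker of dividing cells, had UMIs in 6 of 82 NK-labelled cells, with 17 in 1 cell. A UMI of Mki67 or Top2a was found in 6.10% of NK-labelled and 4.65% of ILC-labelled cells after thinning, and in 15.9% and 15.1% before it. The deposited phase calls, which free RNA can also enter, put 21 of 51 WT and 15 of 31 Batf3-/- NK-labelled cells in S or G2M, and 15 of 45 and 8 of 41 ILC-labelled cells.

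The antibody-derived tags were read apart from the transcripts, and neither clusters nor labels used them. The study reported considerable background counts for every antibody and discarded counts below thresholds set for each. No threshold was applied here, so the raw medians below include background and do not by themselves show surface expression. The 11 tag rows carry no antibody names, so 3 were named CD4, CD8a and CD172a by their mutual best correlation with the transcript of the antigen in both libraries, and CD11b and CD24 by a looser rule added after seeing the data. For CD11b the median NK-labelled cell had 39 counts in WT and 34 in Batf3-/-, with 30 and 26 in ILC-labelled cells, 30 and 24 in T-labelled cells, and 44 and 43 in the DC clusters. NK-labelled cells had the highest of the 3 lymphoid medians in each library. As this row was named by its correlation with Itgam, it is no independent match with that transcript. Median CD4 counts were 27 and 29 in NK-labelled cells, 28 and 30 in ILC-labelled cells, and 34 and 42 in T-labelled cells. CD8a was at 39 and 40, 35 and 36, and 45 and 44 in the same order. The quartiles of the 3 lymphoid groups overlapped for CD11b, CD4 and CD8a. Taken as a share of each cell's tag counts, the medians of both labels moved from below to above the DC clusters for CD4 and CD8a in both libraries. For CD11b those of NK-labelled cells did, at 9.72% and 9.63% against 8.39% and 9.29%, and those of ILC-labelled cells, at 8.02% and 7.00%, stayed below.

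**Figure D4:**
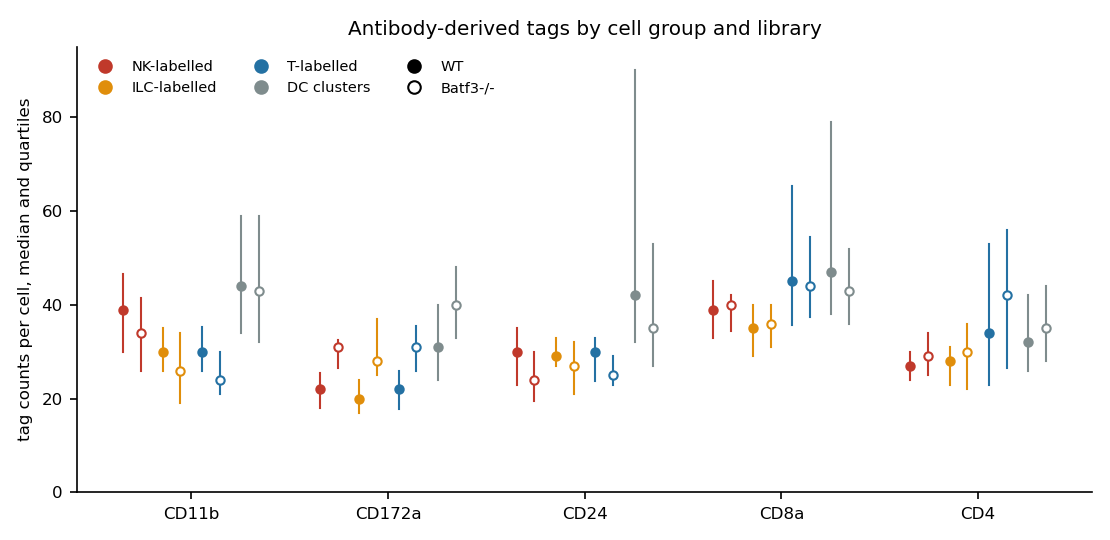
Median raw tag counts per cell, background included, with quartile bars for 5 inferred tags in 4 cell groups, WT filled and Batf3-/- open. NK-labelled medians for CD11b lie above those of ILC- and T-labelled cells, with overlapping quartiles.

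Between genotypes most NK receptor and granule genes lay within 2-fold, as most of all genes did. Of 5736 genes, 5.75% were past 2-fold, 173 (3.02%) higher and 157 (2.74%) lower in Batf3-/-, with a median log2 ratio of 0.01. Of 23 NK receptor genes 1 was past 2-fold higher and 1 lower, of 11 granule genes 1 was higher, and of 13 transcription factors 1 was lower. Of 7 chemokine and egress receptor genes 1 was higher and 2 were lower. Ccr7, a receptor for lymph node homing, had 34 UMIs in Batf3-/- and 12 in WT, Cxcr6 had 15 and 44, a log2 ratio of -1.42 (-2.37 to -0.54), and Ccr2 had 37 and 87, a ratio of -1.10 (-1.70 to -0.53). Of 4 group 1 ILC genes 1 was higher, Tnfsf10 at 1.53 (0.49 to 2.68), and 1 was lower. Of 4 group 2 genes 2 were lower, and of 3 group 3 genes 1 was lower. Gzma had a log2 ratio of Batf3-/- over WT of -0.31 (-0.41 to -0.21) and Ncr1 of -0.61 (-0.86 to -0.36), both over the 2 labels pooled, of which NK-labelled cells made up 51 of 96 in WT and 31 of 72 in Batf3-/-. Within NK-labelled cells Gzma was at 9472 and 8732 CPM and Ncr1 at 1085 and 726 CPM. Ccl3, a chemokine for monocytes and lymphocytes, was at 832 and 384 CPM in NK-labelled cells and 555 and 266 CPM in ILC-labelled cells, a ratio of -1.11 (-1.40 to -0.83). Xcl1 had a ratio of 0.49 (0.33 to 0.65), which turned to −0.14 without the cells whose finer label was neither NK nor ILC.

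Batf3 itself was furthest below WT among genes of at least 50 CPM. WT NK-labelled cells had 92.5 CPM and WT ILC-labelled cells 191 CPM, from 78 UMIs in 26 cells, 6 with the NK and 20 with the ILC label. WT T-labelled cells had 12.3 CPM and the WT DC clusters 208 CPM. In 72 Batf3-/- cells there were 0 UMIs, and the Batf3-/- DC clusters had 2.50 CPM. Cst3 was also lower, at 526 and 159 CPM in NK-labelled and 337 and 184 CPM in ILC-labelled cells, and it was at 649 and 142 CPM in T-labelled and 10824 and 4069 CPM in DC cluster cells, so that it moved in the same direction in every group.

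Of the 9 other genes furthest apart, some rested mainly on 1 cell and others on more. Fbxo28 had 28 UMIs in 23 WT cells and 5 in Batf3-/-, Slc7a6os had 35 in 25 WT cells and 8, and Anxa3, an annexin gene, had 43 in 13 Batf3-/- cells, 19 of them in 1 cell, and 1 in WT. Of 29 WT UMIs of Cenpf, a centromere protein gene, 27 came from 1 cell. All 182 UMIs of Ccl1, a chemokine gene, came from 1 ILC-labelled Batf3-/- cell, and 33 of the 35 of Ccl22 from 1 cell. In WT 47 of the 48 UMIs of Ly6d came from 1 cell. Fabp5, a fatty acid binding protein gene, had 121 UMIs in Batf3-/- and 18 in WT, of which 69 lay in 1 cell, and Il4i1, an amino acid oxidase gene, had 60 and 9, of which 24 lay in 1 cell. Both were also higher in the Batf3-/- DC clusters, Fabp5 at 187 and 517 CPM and Il4i1 at 153 and 298 CPM, and the part of DC transcripts in these values was not tested. Of the 330 genes past 2-fold, 18 had at least 50% of the UMIs of the higher library in 1 cell.

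**Figure D5:**
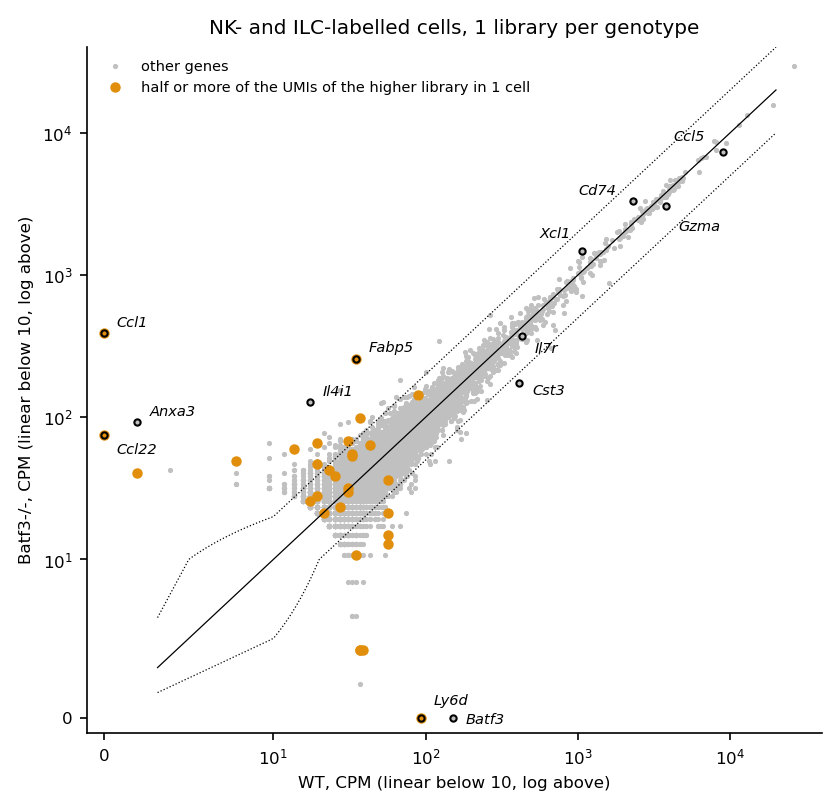
Level in CPM (linear below 10, logarithmic above) of each of 5736 genes in the NK- and ILC-labelled cells of the Batf3-/- library against the WT library. Lines mark equal levels and 2-fold, and orange points are genes with at least 50% of the UMIs of the higher library in 1 cell. Lineage genes such as Gzma, Xcl1 and Il7r lie within the 2-fold lines, and Batf3 lies at 0 on the vertical axis.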

How the data were processed

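Per the labels and the methods of the study, libraries made with 10x v3 chemistry were processed by the authors with Cell Ranger, bcl2fastq 2.2.0 and Seurat 3.0.5, mapped to GRCm38 and aggregated with a correction for depth. The authors kept cells with 500 to 5000 genes, at most 20% mitochondrial and at most 50% ribosomal reads. The deposited tables hold UMI counts per gene, tag counts, tag values as natural log centred ratios, per-cell fractions of mitochondrial and ribosomal counts, cell cycle scores, clusters and SingleR labels. Here counts were summed per group and library and scaled to CPM, with exact Poisson intervals for levels, exact binomial intervals for ratios and Clopper-Pearson intervals for shares. A gene with 0 UMIs on 1 side was set at a floor of 3 counts over the group. Each comparison used genes with at least 20 summed UMIs. Genes named outside the fixed lists were the 5 highest and 5 lowest ratios of each of 4 comparisons at 50 CPM or more. The members and the 20 gene lists were chosen with earlier results of these data known. Work used Python 3.11.15, numpy 2.4.6, scipy 1.17.1, pandas 2.3.3 and scanpy 1.11.5. On simulated NK against ILC counts for 5736 genes the intervals covered the true ratio of 191 of 200 changed genes. Those counts were drawn with counting error alone, so the result does not bear on spread between cells.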

Additional observations from a re-analysis of the deposited data

How the results depend on the processing

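Counts of genes past 2-fold followed the UMI minimum, since fewer or more genes were then compared. With at least 50 summed UMIs they were 413 against T-labelled cells, 229 for the NK against the ILC label and 39 between genotypes, and with at least 10 they were 1721, 1391 and 866, in place of 1042, 720 and 330. Requiring a counting interval clear of 0, chosen after seeing the data, left 199 between genotypes. Against the DC clusters 3963 became 1958 with the deeper group thinned. The WT share of NK- and ILC-labelled cells rose from 0.785% to 1.11% without clusters 4, 6, 12, 17 and 18. Shares of cells with a UMI rose with depth. At 2000 UMIs and without thinning they were 68.6% and 87.2% for Il7r and 23.3% and 36.0% for Cd3d in ILC-labelled cells, 57.3% and 70.7% for H2-Aa in NK-labelled cells and 81.4% and 90.7% in ILC-labelled cells. As a share of tag counts, the ratio of the pooled NK- and ILC-labelled cells to the DC clusters turned over in WT for CD4 (0.844 to 1.17), CD8a (0.787 to 1.08) and CD11b (0.761 to 1.06), and in Batf3-/- for CD4 (0.843 to 1.04) and CD8a (0.884 to 1.09). It moved to 0.938 for CD24 and 0.962 for CD172a in WT and to 0.915 and 0.943 in Batf3-/-, and the cause was not tested. Cells in S or G2M, 41.2% and 48.4% of NK-labelled and 33.3% and 19.5% of ILC-labelled cells in WT and Batf3-/-, became 3.92%, 9.68%, 4.44% and 4.88% when counted by a thinned Mki67 or Top2a UMI, and 11.8%, 22.6%, 13.3% and 17.1% by an unthinned one. Of 491 ratios of single genes under an alternative, 374 stayed within their counting interval, 117 left it and 485 kept their sign. The other 6 were of Il7r against T-labelled cells and of Il7r, Xcl1 and Klrb1a between genotypes, none of them past 2-fold. Scrublet at an expected rate of 5% called 0 of 12119 Batf3-/- cells, so that it did not work in that library, and only the 10% run bears on doublets there. No paired analysis between genotypes was possible because each genotype was 1 library. Within the libraries, 70 of 75 list genes past 2-fold between the NK and the ILC label had the same sign in both.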

Other observations

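Of the 6 tag rows that could not be named, the one with the widest gap between the labels was picked after its values were seen. It may be the tag of CD11c, a marker of the sort. When each of the 11 rows was given to 1 antigen transcript by the highest summed correlation, it went to Itgax in both libraries, and all 11 rows so given ran in the order of the manufacturer's antibody numbers. It was left unnamed because another row correlated best with Itgax in WT. Its median was 45 counts in WT (quartiles 35 to 58) and 47 in Batf3-/- (32 to 59) ILC-labelled cells. It was 31 (26.5 to 38) and 29 (25 to 34) in NK-labelled cells, so that the quartiles overlapped in both libraries. T-labelled cells had medians of 28 and 28, and the DC clusters 87 and 57. The gap between the labels was not tested. The study lists the same clone for its fluorescent CD11c antibodies and its CD11c tag, and the tags were added after the sort stain. The effect of that stain on the tag counts was not tested.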
